A study of Pan troglodytes with 50 samples.

Results

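The elements described here are 124 sequences of a lentiviral reporter assay whose names begin with an hg19 position and call them positive controls marked by K27ac, with no mention of ENCODE or EnhancerFinder. They were taken by name alone, 124 of the 3201 different elements in the 3 reporter libraries of the series, and no measured value entered the choice. All 124 are 171 bases long, every name carries a control number between 1 and 144, and all 124 were read in each of the 3 libraries. The names do not say in which cells the mark was seen, and this could not be checked here, because the acetylation peak lists of the series are on a chimpanzee assembly and the elements are on hg19.

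The reporter cultures were chimpanzee progenitors made from induced pluripotent stem cells. The lines Pt2A and Pt5C come from a different animal each, so a line difference is a difference between 2 animals as much as between 2 lines. The stages are N2, called neural progenitors in the labels, and N3, called glial progenitors, both described as telencephalon. The HAR library, built around human accelerated regions, was read in both lines at both stages. The HAR control library was read only at N2 and the permutation library at both stages, each in Pt2A alone. Each of these 7 readings has 3 separately infected cultures, harvested 4 days after infection, with an RNA and a DNA library each. All cultures of a reading carry the same barcoded copies in cells of 1 line, so a p-value reflects how infections varied, not how animals or barcodes do.

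Acetylation of lysine 27 on histone H3 is a chromatin mark of active enhancers and promoters, and is widely used to choose candidate enhancers. A reporter assay asks something narrower: whether a short piece of DNA, cut from its place and integrated beside a minimal promoter, raises transcription of a barcode in the cells at hand. A marked region can exceed a tested fragment, need a neighbouring element, or be active in other cells.

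Each element is read through many barcodes, 15-base tags in the transcript that stand in for it. The members had 66 to 100 barcodes each in the HAR library (median 89) and 65 to 100 in the permutation library (median 96). Of the 10966 member barcodes of the HAR library, 10859 were also in the HAR control library, all on the same element. None of the 11664 member barcodes of the permutation library was in the HAR library, so the permutation library reads the same 124 sequences through independent tags. The sequences of the elements themselves are not printed. The tags below, of a pair of members picked after their values were seen, are shown because these members differed between lines or between libraries in nearly every tag. They are the 3 tags with the most DNA counts for each, in lower case throughout because no part of a tag is singled out.
positive control 104, barcode 1: tggtcgataaggttc
positive control 104, barcode 2: atcctcgtcctcgtt
positive control 104, barcode 3: ttcgttggtcttatc
positive control 33, barcode 1: tcaactcctactaat
positive control 33, barcode 2: catgcggtcgttcgc
positive control 33, barcode 3: cagagtaggttcgga

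A pair of culture groups stood apart and bear on what follows. In Pt2A at N2, the members' activities in the HAR library correlated with those of the permutation library (Pearson r = 0.86, Spearman rho = 0.76, n = 124 members) but hardly with the HAR control library in the same line and stage (r = 0.13, rho = -0.06), although that library shares their barcodes. The HAR control library correlated instead with the other 3 groups of the HAR library (r = 0.79 for Pt2A N3, 0.71 and 0.82 for Pt5C at N2 and N3). In Pt5C N2, replicate 3 correlated with replicates 1 and 2 across members at r = 0.79 each, whereas those 2 correlated at r = 0.97. Replicate 3 correlated with the Pt2A N2 mean at r = 0.72, against 0.31 and 0.29 for replicates 1 and 2. These are descriptions across elements that share libraries. Total counts ran from 5410033 to 44149144 per library, and a member was read in at least 2646 RNA and 1805 DNA counts summed over the cultures of a group. Whether the deposited counts are reads or molecular identifiers is not stated, so no counting interval is given.

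Activity was taken as log2 of RNA over DNA, with the median of the 120 negative control elements as 0, and a member was called higher or lower at an edgeR adjusted p under 0.05. As a class the members lay close to the negative controls. Their median fitted activity at N2 was 0.02 for either line (Pt2A, Pt5C) of the HAR library and at N3 was 0.03 for Pt2A and 0.04 for Pt5C. It was 0.09 in the HAR control library, and 0.02 and 0.04 in the permutation library at N2 and N3. Medians of all elements in the same order were -0.01, 0.01, 0.02, 0.01, 0.07, 0.09 and 0.07. Averaged over the 12 cultures of the HAR library, 108 of 124 members lay within 0.25 of 0, 16 lay above 0.25, and 4 lay above 0.5.

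In each group of the HAR library the share of members called higher was above that of all elements, a difference that was not tested. In Pt2A N2, 47 of 124 members were called higher against 27.4% of all 2440 elements, and 28 were called lower against 33.9%. In Pt5C N2 the counts were 43 higher (31.8% of all) and 23 lower (27% of all, 660 of 2440). In Pt2A N3, 52 were higher (36.9% of all) and 42 lower (28.5%). In Pt5C N3, 54 were higher (37.6% of all) and 30 lower (35.7%). In the same order of groups, 37.9%, 34.7%, 41.9% and 43.5% of members were called higher. The shares of the 1006 human HAR elements were 25.7%, 33.6%, 38.4% and 40.0%, so outside Pt2A N2 they lay near those of the members. The 21 other positive controls were called higher more often than the members in 3 of the 4 groups, at 61.9% and 66.7% for Pt2A and Pt5C at N3 and 42.9% for Pt5C at N2, and less often for Pt2A at N2, at 33.3%. Negative controls were called often too, 27 to 37 of 120 higher and 35 to 44 lower over the 4 groups, so a call shows only that an element differed from their median by more than cultures vary. With the error taken from the spread between barcodes, 26 rather than 47 members were called higher in Pt2A N2 and 26 rather than 43 in Pt5C N2. Calls lower at N3 then numbered 22 for Pt2A and 17 for Pt5C, and those of Pt5C at N2 numbered 12. Without Pt5C N2 replicate 3, 49 members were called higher and 30 lower in that group, and 65 of its 66 calls kept their direction.

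In the HAR control library 76 members were called higher, against 52.9% of its 2590 elements, and 38 lower, against 33.3%. There 71.3% of the 150 shuffled HARs were called higher, a larger share than the 61.3% of members. In the permutation library at N2, 58 members were higher against 62.1% of 1049 elements and 32 were lower against 17.5%. At N3, 52 members were higher against 55.8% and 12 were lower against 11.3%. Of the elements there, 768 are HAR variants, with a median of 0.11 at N2 and 0.08 at N3. Centred on all elements instead, the members' counts became 31 higher and 66 lower at N2, and 27 higher and 38 lower at N3.

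A small set of members was called higher wherever it was read, some of them by little. In all 4 groups of the HAR library 18 members were called higher (14.5% of members, against 9.59% of all elements). The same held for 6.67% of negative controls, 23.8% of the 21 other positive controls and 18.5% of HAR variants. In all 7 readings 14 members were higher (11.3%), a share near the 12.1% of the 438 elements common to the 3 libraries. It was above the 5% of negative controls and below the 19.0% of other positive controls and 16.8% of HAR variants. In all 4 groups 2 members were lower (1.61%, against 8.16% of all elements), and 0 were lower in all 7 readings (8.90%). Lower in all 4 groups were 5% of negative controls, 0 of the 21 other positive controls and 42.2% of HAR variants. In all 7 readings these shares were 0.833%, 0 and 22.0%. With the N3 DNA of the same line under the N2 RNA, 12 members were lower in all 4 groups and 2 in all 7 readings. Positive controls 141 and 67, higher in all 7 readings, averaged 0.08 and 0.14 over the 12 cultures of the HAR library. Over N3 DNA their activities in Pt2A N2 of that library were -0.003 and 0.01 (edgeR adjusted p = 0.896 and 0.681). That of positive control 11 was 0.96. Calls of both directions were common: 71 of 124 members (57.3%) were higher in at least 1 reading and lower in at least 1 other, against 35.2% of the 438 common elements. The share was 49.2% among negative controls, 42.9% among other positive controls and 8.67% among HAR variants. Every member was called in at least 1 of the 7 readings, as were 437 of the 438 common elements.

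The most active member was positive control 11 (chr11:133907201-133907371). At N2 its 3 cultures read 0.94, 1.01 and 0.95 in Pt2A against 0.78, 0.78 and 0.70 in Pt5C. At N3 they read 1.08, 1.13 and 1.16 in Pt2A against 1.22, 1.24 and 1.20 in Pt5C. All 12 values lay above 0.5, and the Pt5C N2 cultures were the lowest. The mean over the 12 was 1.02 ± 0.19 (SD, n = 12), a 2.02-fold higher RNA over DNA than the median negative control. The HAR control library gave 1.49 ± 0.01 (SD, n = 3), and the independent tags of the permutation library 0.74 ± 0.11 at N2 and 0.58 ± 0.07 at N3. All 7 readings passed, with edgeR adjusted p from 3.33e-289 to 2.9e-08, and no single barcode carried more than 6.84% of its RNA.

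Positive control 130 (chr10:98900001-98900171) followed. At N2 it read 0.64, 0.56 and 0.68 in Pt2A against 0.67, 0.70 and 0.65 in Pt5C. At N3 it read 0.58, 0.60 and 0.63 in Pt2A against 1.00, 1.12 and 1.09 in Pt5C. The Pt2A N2 cultures overlapped with those of Pt5C N2 and with those of Pt2A N3, which did not overlap with each other. The Pt5C N3 cultures lay above all others. Over N3 DNA its activity at N2 was 0.90 in Pt2A and 0.80 in Pt5C. Positive control 96 (chr7:130904351-130904521) ranged more widely, from 0.27 ± 0.01 in Pt2A N2 through 0.49 ± 0.16 in Pt5C N2 and 0.66 ± 0.04 in Pt5C N3 to 0.98 ± 0.03 in Pt2A N3 (SD, n = 3 each). In the permutation library it was again low at N2 (0.09 ± 0.02) and higher at N3 (0.57 ± 0.09). Both members exceeded 1.2 in the HAR control library, at 1.26 ± 0.02 and 1.24 ± 0.01.

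The other 5 named for being higher in all 4 groups had smaller means over the 12 cultures. Positive control 139 (chr22:24553801-24553971) averaged 0.51 ± 0.16, and positive control 107 (chr11:44009051-44009221) 0.48 ± 0.20. Positive control 107 was higher in Pt2A than in Pt5C at both stages: it read 0.72 ± 0.02 and 0.60 ± 0.04 in Pt2A at N2 and N3, and 0.32 ± 0.10 and 0.29 ± 0.04 in Pt5C. Positive control 39 (chr12:24059351-24059521) averaged 0.47 ± 0.20 and missed a call only in the permutation library at N2. Positive control 111 (chr19:13189201-13189371) averaged 0.41 ± 0.17. The least variable of these 8 was positive control 144 (chr11:44899001-44899171), at 0.40 ± 0.09 over 12 cultures and between 0.25 and 0.46 in all 7 reading means.

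At the other end, positive control 142 (chr9:136816251-136816421) and positive control 41 (chr13:24653101-24653271) were lower in all 4 groups. Positive control 142 averaged -0.15 ± 0.05 (SD, n = 12) and its lowest group was Pt5C N3 at -0.22 ± 0.02. In the permutation library it read 0.02 ± 0.04 and -0.05 ± 0.10, and neither passed. Positive control 41 averaged -0.11 ± 0.07, and its permutation library value at N2 was called higher, at 0.09 ± 0.01 (edgeR adjusted p = 0.0183). Over N3 DNA that value was 0.02 and no longer passed (edgeR adjusted p = 0.654). Both were 0.90 to 0.93 times the median negative control over the 12 cultures, small deviations beside those of the active members.

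Calls in Pt2A N2 mostly had the same direction in the HAR and the permutation library. These overlaps were counted among the members only, so whether they set the members apart from other elements was not tested. Of the 47 members called higher in Pt2A N2 of the HAR library, 37 (78.7%) were called higher there as well, which is 63.8% of its 58. Of the 28 lower, 21 (65.6% of its 32) were lower in both, and 4 members had opposite calls. Between Pt2A N2 of the HAR and the HAR control library, by contrast, 29 members had the same call and 41 opposite calls. Between Pt5C N3 and the HAR control library 82 had the same call and 1 an opposite one, and between Pt2A N3 and the HAR control library 79 and 10.

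The DNA libraries differed along the same divide. In Pt2A, the DNA share of 30 members was higher at N2 than at N3 in the HAR library (27.9% of all elements were) and of 41 lower (35.5%). In Pt5C only 5 were higher (8.11%) and 3 lower (4.18%). In the permutation library 60 were higher at N2 (27.2%) and 13 lower (21.4%). All 30 members with more N2 DNA in the HAR library had more in the permutation library too, which is 50.0% of its 60. Of the 41 members with less N2 DNA in the HAR library, 9 had less in the permutation library and 3 had more. These overlaps were counted among the members only, not over all elements. The size of the DNA difference correlated across the 124 members between the 2 libraries at r = 0.95 (rho = 0.83), although they share no barcode.

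The members with the largest DNA difference were positive controls 101, 64, 60 and 6, and the values of positive control 64 show its form. Positive control 64 (chr1:3229801-3229971) had 11.8, 12.6 and 11.6 DNA counts per 1000 DNA counts of the negative controls in the replicates of Pt2A at N2 with the HAR library. It had 7.2, 7.5 and 7.5 in Pt2A N3, so the groups did not overlap. Its RNA on the same scale was 9.4 ± 0.11 at N2 and 9.5 ± 0.25 at N3 (SD, n = 3). Its activity accordingly read -0.35 ± 0.09 at N2 and 0.37 ± 0.02 at N3. Over the N3 DNA, its N2 activity was 0.35 (edgeR adjusted p = 5.12e-06), a reversal of the call. In the HAR control library, also Pt2A N2, its DNA was 8.1 ± 0.20, its RNA 15.8 ± 0.04, and its activity 1.00 ± 0.03.

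Positive controls 101 (chr17:17607001-17607171), 60 and 6 showed the same arrangement of DNA. Their DNA was higher at N2 than at N3 by 0.77, 0.71 and 0.65 on the log2 scale in the HAR library, and by 0.80, 0.82 and 0.75 in the permutation library. Positive control 60 (chr14:101160501-101160671), named after its values were seen, read -0.40 ± 0.13 in Pt2A N2, 0.38 ± 0.02 in Pt2A N3 and 1.00 ± 0.06 in the HAR control library. Over N3 DNA the N2 activities of positive controls 101, 60 and 6 turned to 0.11, 0.30 and 0.15, of which the last 2 passed. Over the whole class, activity in Pt2A N2 of the HAR library correlated with the HAR control library at r = 0.61 when N3 DNA replaced N2 DNA, against 0.13 with its own DNA. Of the 75 members called in Pt2A N2, 29 kept the call with N3 DNA and 13 were called in the opposite direction. What set the N2 DNA libraries apart was not tested.

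Between the stages in Pt2A, 42 members were higher at N3 than at N2 (32.4% of all elements were) and 52 lower (34.9%). Over N3 DNA throughout, 39 were higher and 51 lower, 69 of the 94 calls held and 8 members had the opposite sign. The 4 stage and line comparisons share cultures with one another, so their values stand side by side and are not independent. The largest rise was that of positive control 128 (chr10:79606901-79607071). Its activity was -0.08, -0.10 and -0.05 at N2 and 0.84, 0.92 and 0.86 at N3, with no overlap. The difference of RNA over DNA was 0.93 on the log2 scale (edgeR adjusted p = 7.22e-18) and 0.88 over N3 DNA, and 85 of 88 barcodes had the higher ratio at N3.

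Positive control 6 (chr14:90888901-90889071) and positive control 38 (chr19:5106201-5106371) came next, with differences of 0.81 and 0.80. Positive control 6 read -0.50, -0.60 and -0.37 at N2 and 0.35, 0.31 and 0.35 at N3, but over N3 DNA the difference was 0.15 (edgeR adjusted p = 0.0013). Positive control 38 read -0.17, -0.35 and -0.18 at N2 and 0.55, 0.61 and 0.61 at N3, and kept 0.47 over N3 DNA, where its N2 activity was 0.09 (edgeR adjusted p = 0.135). The 3 largest falls were smaller. Positive control 94 (chr1:3027601-3027771) fell by 0.36, from -0.02 ± 0.03 to -0.35 ± 0.01. Positive control 138 (chr9:27488751-27488921) fell by 0.32 and positive control 34 (chr20:47418801-47418971) fell by 0.32. Over N3 DNA these falls were 0.24, 0.22 and 0.14, and all 3 still passed. The HAR control library, also Pt2A N2, departed from Pt2A N2 of the HAR library at these members. The departure was 0.52, 1.06 and 0.88 for positive controls 128, 6 and 38. For positive controls 94, 138 and 34 it was -0.42, -0.29 and -0.39. Each departure had the sign of that member's N3 minus N2 difference, and its cause was not tested. For positive controls 6, 38, 94 and 34 the departure was larger than that difference, and for positive controls 128 and 138 it was smaller.

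The permutation library repeats the Pt2A stage comparison with its own tags and cultures. There 35 members were higher at N3 (17.0% of its elements) and 17 lower (7.82%). Of the 94 members called in the HAR library and the 52 called here, 37 had the same direction, 39.4% of the first list and 71.2% of the second, and 7 had opposite directions. The differences correlated across members at r = 0.78, and at r = 0.46 when N3 DNA was used in both. The counts here were unstable: 17 higher and 37 lower over N3 DNA, 26 and 25 with the negative controls as centre, and 16 in all without replicate 2 of N3. Positive control 38 was higher at N3 in this library too (0.44, 0.14 over N3 DNA), as was positive control 96 (0.51, 0.46 over N3 DNA). Positive control 128 read -0.01 ± 0.04 at N2 and 0.21 ± 0.02 at N3, a smaller step than in the HAR library.

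In Pt5C, 27 members were higher at N3 than at N2 (12.3% of all elements) and 5 lower (5.12%). With N3 DNA 49 members were called in place of 32, and with the error taken over barcodes 30 were higher and 26 lower. Positive control 11 rose most, by 0.47 (edgeR adjusted p = 4.13e-10), and 97 of its 100 barcodes were higher at N3. Positive control 130 rose by 0.40 and positive control 33 (chr14:56424701-56424871) by 0.36, from 0.10 ± 0.13 to 0.46 ± 0.01. The largest falls were positive control 14 (chr10:126305501-126305671) by 0.17, positive control 115 (chr9:133734701-133734871) by 0.12 and positive control 135 (chr1:23000601-23000771) by 0.11. Without Pt5C N2 replicate 3 there were 26 higher and 2 lower, 26 of them among the first 32 calls, and positive control 135 no longer passed (edgeR adjusted p = 0.0945).

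Between the lines at N2, 35 members were higher in Pt5C than in Pt2A (29.6% of all elements) and 40 lower (29.7%). Over N3 DNA the number called fell to 35 in all, 17 higher and 18 lower. The clearest line difference in the class was positive control 104 (chr5:107273101-107273271). Its N2 cultures read -0.06, -0.01 and -0.05 for Pt2A against 1.01, 1.05 and 0.48 for Pt5C. The lowest Pt5C culture, replicate 3, still lay above every Pt2A culture. The difference was 0.90 (edgeR adjusted p = 4.98e-08), 0.96 over N3 DNA, and 1.05 without replicate 3. At N3 the cultures read -0.01, 0.08 and 0.02 in Pt2A and 1.10, 1.09 and 1.06 in Pt5C, a 2.1-fold difference (1.07 on the log2 scale, edgeR adjusted p = 3.26e-09).

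The difference of positive control 104 lay in its RNA. Per 1000 counts of the negative controls its DNA at N2 was 14.0 ± 0.30 in Pt2A and 14.7 ± 0.08 in Pt5C, and at N3 15.0 ± 0.27 and 14.9 ± 0.14. Its RNA at N2 was 13.6 ± 0.08 in Pt2A and 26.9 ± 5.49 in Pt5C, and at N3 15.0 ± 0.29 and 31.3 ± 0.80. Of the barcodes with at least 10 DNA counts in both groups, 85 of 86 were higher in Pt5C at N2 and 82 of 86 at N3. Its barcode 1 read 2268 RNA over 882 DNA counts in Pt2A N2 and 2797 over 1445 in Pt5C N2, activities of -0.41 and 0.80. Barcode 2 rose from 0.23 to 1.19 and barcode 3 from 0.21 to 0.98 between the same groups. Other cultures of Pt2A N2 gave 0.12 ± 0.04 in the HAR control library and 0.54 ± 0.07 in the permutation library. The last value, of independent tags, lay above every Pt2A culture of the other libraries, and it was 0.07 ± 0.01 at N3.

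The other large line differences at N2 were positive control 101 and positive control 64, higher in Pt5C by 0.70 and 0.64. Over N3 DNA these were 0.13 (edgeR adjusted p = 0.272) and 0.07 (adjusted p = 0.536), and neither passed. At N2 positive control 101 read -0.59, -0.79 and -0.55 for Pt2A against 0.15, 0.20 and -0.11 for Pt5C, with no overlap. Lower in Pt5C were positive control 107 by 0.41, positive control 34 by 0.23 and positive control 11 by 0.23, and all 3 passed over N3 DNA as well. For positive control 107, 81 of 92 barcodes were lower in Pt5C. In the HAR control library, also Pt2A N2, positive controls 107 and 34 departed from the HAR library by -0.31 and -0.39. These departures had the sign of the line difference, whereas that of positive control 11, at 0.53, had the opposite sign. The lines were not compared with the HAR control library. Without Pt5C N2 replicate 3, 40 members were higher and 48 lower.

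Between the lines at N3, 36 members were higher in Pt5C (13.4% of all elements) and 11 lower (9.51%). With the negative controls as centre the counts were 27 and 18. After positive control 104 the largest were positive control 130, at 0.47, and positive control 71 (chr9:132330901-132331071), at 0.45. Positive control 71 read 0.05, 0.07 and 0.09 in Pt2A and 0.51, 0.50 and 0.50 in Pt5C, and 99 of its 100 barcodes were higher in Pt5C. Lower in Pt5C were positive control 128 by 0.69, positive control 38 by 0.40 and positive control 97 (chr9:139388601-139388771) by 0.33. Positive control 97 read 0.29 ± 0.04 in Pt2A N3 and -0.06 ± 0.01 in Pt5C N3. Its cultures did not overlap between the lines.

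The stage difference itself differed between the lines for 59 members, 40 with a larger N3 minus N2 difference in Pt5C (15.7% of all elements) and 19 with a smaller one (17.6%). With the negative controls as centre these were 25 and 24, and without Pt5C N2 replicate 3 they were 53 and 28. Positive control 130 (0.44) and positive control 65 (chr11:3113951-3114121, 0.37) led the first group. Positive control 65 read 0.14 ± 0.02 and 0.04 ± 0.04 in Pt2A at N2 and N3, and 0.16 ± 0.05 and 0.42 ± 0.04 in Pt5C. Positive control 128 (-0.82) and positive control 38 (-0.63) led the second. Their values over N3 DNA were 0.59, 0.34, -0.79 and -0.41, and all 4 passed. All of these use Pt2A N2 of the HAR library, not of the HAR control library.

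The 3 highest members of the HAR control library were positive controls 33, 11 and 130. Positive control 33 read 2.12, 2.12 and 2.25 there, 4.47-fold above the median negative control (edgeR adjusted p = 1.05e-255). In the HAR library, with the same barcodes in the same line and stage, it read -0.04, -0.10 and 0.08. Its highest value in any other reading was 0.46 ± 0.01, in Pt5C N3, so the 2 libraries did not overlap. Of its barcodes with at least 10 DNA counts in both, 71 of 73 were higher in the HAR control library. Barcode 1 had 1562 RNA over 426 DNA counts in the HAR library and 3721 over 324 in the control library, barcode 2 had 1007 over 332 and 3384 over 265, and barcode 3 had 1268 over 345 and 3627 over 266. No barcode held over 6.14% of its RNA in the control library. Where the excess arose was not tested.

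Positive control 33 is also 1 of 6 members whose name records a changed base that removes an EcoRI site. The other 5 are positive controls 38, 50, 93, 118 and 129, with mean activities over 12 cultures of 0.14 ± 0.32, 0.05 ± 0.05, 0.00 ± 0.07, -0.02 ± 0.05 and 0.05 ± 0.15. None was called in 1 direction in all 4 groups of the HAR library.

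The first 5 members by position had mean activities between -0.21 and 0.23 over the 12 cultures, short of the most active members. Positive control 48 (chr1:1916301-1916471) and positive control 94 were lower in the HAR control library and in 3 groups of the HAR library (all but Pt2A N2) and higher in the permutation library at N2, at 0.19 ± 0.08 and 0.18 ± 0.05. For positive control 94 the last value was 0.03 over N3 DNA and no longer passed (edgeR adjusted p = 0.142). Positive control 45 (chr1:3012051-3012221) stayed between -0.05 and 0.08 in all 7 reading means. Positive control 51 (chr1:3348101-3348271) was higher in all 5 readings of the HAR and HAR control libraries, from 0.07 ± 0.03 to 0.48 ± 0.05, and read 0.01 ± 0.06 and 0.00 ± 0.01 in the permutation library. Positive control 64 changed sign between readings as described.

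By position, the members lie on 21 chromosomes, with 17 on chromosome 11 and 13 on chromosome 1. All 124 start at a multiple of 50 bases in the 0-based coordinates of the names. No member shares a base with a HAR element. The nearest, positive control 110 on chromosome 2, lies 400 bases from 2xHAR.183. Its activity averaged -0.07 ± 0.07 (SD, n = 12) in the HAR library, with 3 cultures above 0 and 2 groups called lower. It was -0.10 ± 0.03 in Pt2A N3 and -0.13 ± 0.02 in Pt5C N3. There are 12 pairs of members within 10 kb of each other, made of 21 members. Their mean activities differed by a median of 0.07 (0.00 to 0.17), against 0.12 over all 7626 pairs. The means of these 21 members ran only from -0.12 to 0.22, whereas all pairs include members of up to 1.02. The medians therefore do not compare like sets. In the closest pair by activity, positive controls 133 and 108 on chromosome 9 with 1929 bases between them, the means were 0.01 ± 0.04 and 0.01 ± 0.12. In the widest, positive controls 131 and 129 on chromosome 11, they were -0.11 ± 0.08 and 0.05 ± 0.15. The most active members, 11 and 130, have no neighbour in the class within 10 kb.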

How the data were processed

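The authors deposited tables of whole-number counts per barcode, with the barcode, its element and an RNA or DNA count, and these deposited counts were used as they stand. No aligner or counter is named in the labels or headers read here; per the submitters' processing notes the build was GRCh37 (hg19), and per the labels' protocols 10-base molecular identifiers were added, without a statement on whether counts are of reads or identifiers. Counts were summed per element. Elements needed at least 10 barcodes in each DNA library, which removed none. RNA over DNA was tested with edgeR 4.0.16 (R 4.3.3, limma 3.58.1), a quasi-likelihood test, two-sided, with TMM scaling and Benjamini-Hochberg adjustment over all elements of the library at 0.05. Activities take the median negative control as 0, and stage, line and interaction contrasts the TMM centre. Values per culture divide RNA by the like-numbered DNA, each plus 0.5 counts, and are given as mean ± SD. The counts did not show that like numbers belong to the same culture. These values, their SD and the overlap between groups therefore depend on the numbering. Groups come from the labels. On simulated counts of the HAR library, known changes of 0.25 on the log2 scale in Pt5C N3 RNA were recovered at 97 to 99%. For the interaction 89% were recovered. The simulation gave unchanged elements equal shares in RNA and DNA and held no DNA difference between stages, so it does not cover such differences.

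Members were named by rule: the 8 highest and 4 lowest among those called in 1 direction in all 4 groups of the HAR library, or all of them if fewer, the 3 largest per direction of each stage and line contrast in the HAR library whose cultures did not overlap, the 2 largest per direction of the interaction, the 3 highest of the HAR control library, and the first 5 by position that the permutation library holds. Members and lists were chosen with earlier results of these data known. Alternatives were DESeq2 1.42.0 (size factors or Wald test), no filter, another zero point or centre, N3 DNA as denominator, barcode spread as error, the top barcode left out, the mean over barcodes, a replicate block and each replicate left out. The acetylation peak lists were not used here.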

Additional observations from a re-analysis of the deposited data

Results flagged for a closer look

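The N3 minus N2 difference of the HAR library differed between Pt5C and Pt2A for 59 of 124 members, by edgeR's quasi-likelihood test of the interaction with Benjamini-Hochberg adjustment. The difference of Pt5C minus that of Pt2A was -0.82 for positive control 128 and -0.63 for positive control 38. Within the HAR library, the activity of both rose between the stages mainly in Pt2A. This difference between the lines was 0.44 for positive control 130 and 0.37 for positive control 65, which within the HAR library were highest in Pt5C N3. Positive control 130 was higher still in the HAR control library, in Pt2A at N2. Each of the 4 kept its direction and passed over N3 DNA. All 4 use Pt2A N2 of the HAR library, from which the HAR control library departed in the same line and stage. The departure was 0.52 and 0.88 for positive controls 128 and 38, and 0.64 and 0.09 for positive controls 130 and 65. That of positive control 38 exceeded its N3 minus N2 difference in Pt2A, and that of positive control 128 did not. How the interaction would read with the HAR control library at N2 was not tested.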

How the results depend on the processing

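The named stage, line and interaction differences kept their direction under every alternative run, and 3 lost their call: positive controls 64 and 101 between the lines at N2 over N3 DNA (0.07 and 0.13), and positive control 135 between the stages in Pt5C over N3 DNA (-0.05) and without Pt5C N2 replicate 3 (-0.08). The HAR control library did not take the place of Pt2A N2 of the HAR library in any of these runs. Named activities at N2 were less stable over N3 DNA. Of 23 called in Pt2A N2 of the HAR library, 8 changed sign and 3 lost their call: positive controls 64 (0.35), 60 (0.30), 6 (0.15), 101 (0.11), 38 (0.086), 135 (-0.021), 97 (-0.0059) and 14 (-0.00053) changed sign. Of 23 in the permutation library, 4 changed sign, positive controls 60 (0.20), 64 (0.16), 101 (0.085) and 38 (0.019), and 4 lost their call. Of 24 in Pt5C N2, 0 changed sign and 1 lost its call. DESeq2, no filter and leaving out the top barcode moved no count of calls by over 1.5 times. With the error from the spread between barcodes, members called higher fell to 26 in Pt2A N2, 26 in Pt5C N2, and 37 and 34 in the permutation library at N2 and N3; members called lower fell to 12 in Pt5C N2, 22 in Pt2A N3, 17 in Pt5C N3, and 21 and 5 in the permutation library; 56 members were called between the stages in Pt5C. With N3 DNA as denominator, 15 members were lower in the permutation library at N2, 49 were called between the stages in Pt5C and 35 between the lines at N2. With the TMM centre as 0, the permutation library had 31 higher and 66 lower at N2, and 27 and 38 at N3. The 2 members lower in all 4 groups became 12 over N3 DNA and 1 with the TMM centre, with barcode error or with the replicate block, and the 0 lower in all 7 readings became 2 and 1 over N3 DNA and with the TMM centre. Leaving out 1 replicate at a time gave 14 to 30 members lower in Pt5C N2, 2 to 9 lower in the permutation library at N3, 16 to 66 called between its stages (29, 16 and 26 without N3 replicates 1, 2 and 3) and 1 to 3 lower in all 4 groups. For these shifts the cause was not tested. The replicate block changed no other count by over 1.5 times, and its calls between the stages were 93 in Pt2A and 34 in Pt5C. Same-numbered RNA and DNA deviated together at a correlation over 0.1 in 1 of 21 pairs, and 12 of 21 correlated best with their own number. The main fits therefore did not pair the samples by number, whereas the values per culture divide like-numbered libraries. Some alternatives were chosen after seeing the data: those for the permutation library's stages, the interaction and the all-group counts, and for the permutation library's activity and the contrasts the barcode alternatives.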

Other observations

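The control numbers in the names carry no visible order of activity: Spearman's rho between number and activity lay between -0.05 and 0.07 over the readings (n = 124 members). Of the 16 members called lower in Pt5C N2, Pt2A N3, Pt5C N3 and the HAR control library, 13 (81.2%) were called higher in the permutation library at N2 by edgeR. The same selection over all common elements held 142, of which 31 (21.8%) were higher there and 71 lower. It held 28 negative controls, of which 11 were higher, and 96 HAR variants, of which 5 were. Of the 34 members called higher in those 4 readings, 15 (44.1%) were higher there and 9 lower, against 57 (63.3%) and 17 of 90 common elements. The DNA difference between N2 and N3 of Pt2A in the HAR library correlated across members with activity in the HAR control library, whose own DNA it does not use, at r = 0.43 (rho = 0.49), and in the permutation library at r = 0.43 (rho = 0.51).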
